A study of Mus musculus with 3 samples.

Results

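Interferon-stimulated genes, the genes that cells switch on when an interferon reaches them, were followed through the cells of day 5 ectopic masses. The list held 43 gene symbols given by name, and 42 of them had a row among the 31053 gene rows of the deposited tables; Mx2 was not analysed here. They were 30 genes of the type I response, 3 further type I genes that many cells carry at a high level without interferon (Bst2, Ifi27l2a and Ifitm3), and 9 genes of the kind that interferon gamma drives. The masses came from CD1 mice, an outbred strain whose animals differ genetically, and each library was 1 group. In the antibody library the mice had implants of Matrigel, a gel of basement membrane proteins, with recombinant human BMP2, a signal that makes cells form cartilage and bone, and received a neutralizing antibody against activin A. In the IgG library the mice had the same BMP2 implants and received a pre-immune control IgG. In the Matrigel library the implants held Matrigel alone, and the labels name neither BMP2 nor an immunoglobulin, so the part of BMP2 and that of IgG cannot be told apart when the IgG library is set against it. Neither ages nor how many animals went into a library could be taken from the sources used here.

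With 1 library for each group there was no replicate, so no test was possible and no p-value is given. Levels are sums of UMIs (molecular tags, 1 for each captured RNA molecule) over the cells of a type, scaled to CPM, that is to a total of 1000000 UMIs. Ratios of CPM carry exact conditional binomial 95% intervals, while those of shares of cells are exact Clopper-Pearson ones. Both kinds of interval reflect counting error alone and say nothing of how animals, implants or preparations vary. A gene was measured in a comparison with at least 10 UMIs in 1 of its libraries, and counted as different once its CPM was at least 1.5-fold higher or lower.

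Type I interferons (the alpha and beta forms) act through the receptor IFNAR, the kinases JAK1 and TYK2, and a complex with STAT2 and IRF9 that binds the interferon-stimulated response element. Interferon gamma, made mainly by T and NK cells, acts through IFNGR, JAK1 and JAK2 on genes with a gamma-activated site, among them IRF1, whose product in turn binds response elements. The type I genes restrict viruses and sense foreign nucleic acids. The gamma genes include the guanylate-binding proteins and the immunity-related GTPases, which attack the vacuoles of intracellular microbes in macrophages. Many genes answer both interferons, so the division into type I and gamma genes is a matter of degree.

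The promoters of members from both groups show the elements that these complexes bind. RefSeq promoter sequences (build GRCm38.p6, 250 bases before to 50 after each start) were found for 32 members. The response element was searched as TTTC, any 2 bases and TTTC again, and the gamma-activated site as TTC, any 3 bases and GAA, on both strands, and overlapping matches were allowed. The response element was present in 19 of the 32 members, 11 of 23 type I core genes and 6 of 7 gamma genes, against 3.99% of 27025 genes with a promoter in the table. The gamma-activated site was present in 10 of the 32, 4 of the 23 and 4 of the 7, against 9.55% of all genes. A match is a description of the letters and shows no binding. Shown are 200 bases before the start, 5′ to 3′ on the gene's own strand, for type I members and gamma members whose levels are followed through the results. Capitals mark the matches: the gamma-activated site in Irf1, both elements in Igtp, and the response element alone in the others, in its reverse complement where it lies on the other strand.
Ifit1 (chr19:34640689-34640888, + strand): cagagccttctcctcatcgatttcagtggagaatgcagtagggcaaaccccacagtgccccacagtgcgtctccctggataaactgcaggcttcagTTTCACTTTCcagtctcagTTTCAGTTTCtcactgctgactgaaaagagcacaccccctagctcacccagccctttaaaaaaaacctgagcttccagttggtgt
Ifit3 (chr19:34583329-34583528, + strand): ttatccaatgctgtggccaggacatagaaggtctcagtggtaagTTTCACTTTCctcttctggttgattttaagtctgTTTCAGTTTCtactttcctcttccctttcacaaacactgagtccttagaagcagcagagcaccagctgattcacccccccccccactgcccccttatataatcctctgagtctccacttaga
Ifit3b (chr19:34607757-34607956, + strand): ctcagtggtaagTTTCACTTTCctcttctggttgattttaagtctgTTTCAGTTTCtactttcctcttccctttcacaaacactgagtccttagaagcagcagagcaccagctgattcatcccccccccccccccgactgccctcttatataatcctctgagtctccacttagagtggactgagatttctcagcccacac
Isg15 (chr4:156200819-156201018, - strand): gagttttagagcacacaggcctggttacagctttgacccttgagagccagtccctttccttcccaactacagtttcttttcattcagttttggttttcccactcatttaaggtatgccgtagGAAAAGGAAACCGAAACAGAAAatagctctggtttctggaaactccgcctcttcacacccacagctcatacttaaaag
Rsad2 (chr12:26456453-26456652, - strand): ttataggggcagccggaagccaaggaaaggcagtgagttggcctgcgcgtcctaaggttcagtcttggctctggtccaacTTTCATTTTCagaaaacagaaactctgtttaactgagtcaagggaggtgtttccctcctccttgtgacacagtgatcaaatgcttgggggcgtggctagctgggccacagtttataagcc
Gbp2 (chr3:142620463-142620662, + strand): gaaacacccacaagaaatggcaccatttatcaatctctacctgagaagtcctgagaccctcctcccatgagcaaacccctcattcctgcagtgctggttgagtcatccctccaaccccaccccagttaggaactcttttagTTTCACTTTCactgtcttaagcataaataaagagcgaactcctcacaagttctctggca
Igtp (chr11:58199356-58199555, + strand): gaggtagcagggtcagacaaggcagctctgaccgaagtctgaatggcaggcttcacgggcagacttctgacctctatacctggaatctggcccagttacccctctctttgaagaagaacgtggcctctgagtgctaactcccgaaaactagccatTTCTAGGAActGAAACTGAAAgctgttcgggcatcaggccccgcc
Irf1 (chr11:53769814-53770013, + strand): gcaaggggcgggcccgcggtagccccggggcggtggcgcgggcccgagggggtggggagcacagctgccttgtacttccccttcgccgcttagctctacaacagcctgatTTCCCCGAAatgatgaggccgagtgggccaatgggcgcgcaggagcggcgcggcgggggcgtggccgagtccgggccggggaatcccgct
In Ifit1 the pair of response elements ended 95 and 76 bases before the start, and Isg15 held 3 overlapping matches between 78 and 57 bases before it. Ifit3 and Ifit3b, neighbouring genes whose longest transcripts are 98.0% identical over 1697 aligned bases, carried the same pair with the same spacing.

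The antibody, IgG and Matrigel libraries kept 5682, 5674 and 8542 cells from 38163880, 46317250 and 44252421 UMIs, with medians of 3556.5, 4161 and 3360 UMIs per cell. Between 7 and 19 cell barcodes were shared by any 2 libraries. Cells were gated by fixed rules, each cell entering 1 gate. Mesenchymal cells (at least 1% of UMIs from Col1a1, Col1a2 and Col3a1) numbered 592, 1478 and 1982 in the antibody, IgG and Matrigel libraries, and macrophages (under 1%, with Csf1r or Adgre1 detected) 3040, 3115 and 5564. The dendritic gate held 47, 94 and 140 cells, the T gate 895, 224 and 87, and the B gate 508, 6 and 1, so B cells are described with the antibody alone. All 7 mesenchymal markers and all 8 macrophage markers were detected in the gates they name. The summed macrophage markers reached 121 to 213 CPM in mesenchymal cells, 0.655% to 1.02% of their level in macrophages, and the mesenchymal markers 27.4 to 90.1 CPM in macrophages. NK markers stood at 833, 2316 and 1572 CPM in the T gate of the antibody, IgG and Matrigel libraries, so this gate also held NK cells. Median depth differed between libraries, at 19186.5, 17191 and 8752.5 UMIs in mesenchymal cells and 4835, 3666 and 3079 UMIs in macrophages of the antibody, IgG and Matrigel libraries.

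Macrophages, dendritic cells and T cells carried more of the type I core than mesenchymal cells in every library. The 30 core genes summed to 1345 CPM in macrophages of the antibody library, 2086 CPM in those of the IgG library and 1387 CPM in those of the Matrigel library. In mesenchymal cells the same sum was 436 CPM with the antibody, 321 CPM with IgG and 706 CPM with Matrigel alone. The IgG library was thus highest in macrophages and lowest in mesenchymal cells. The 9 gamma genes summed to 899 CPM (antibody), 954 CPM (IgG) and 358 CPM (Matrigel) in macrophages, and to 124 CPM (antibody), 118 CPM (IgG) and 161 CPM (Matrigel) in mesenchymal cells. For each core UMI, macrophages thus held 0.668 gamma UMIs with the antibody, 0.458 with IgG and 0.258 with Matrigel alone. In T cells this balance was 0.771, 0.745 and 0.627 in the antibody, IgG and Matrigel libraries, and in mesenchymal cells 0.284, 0.367 and 0.228.

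**Figure D1:**
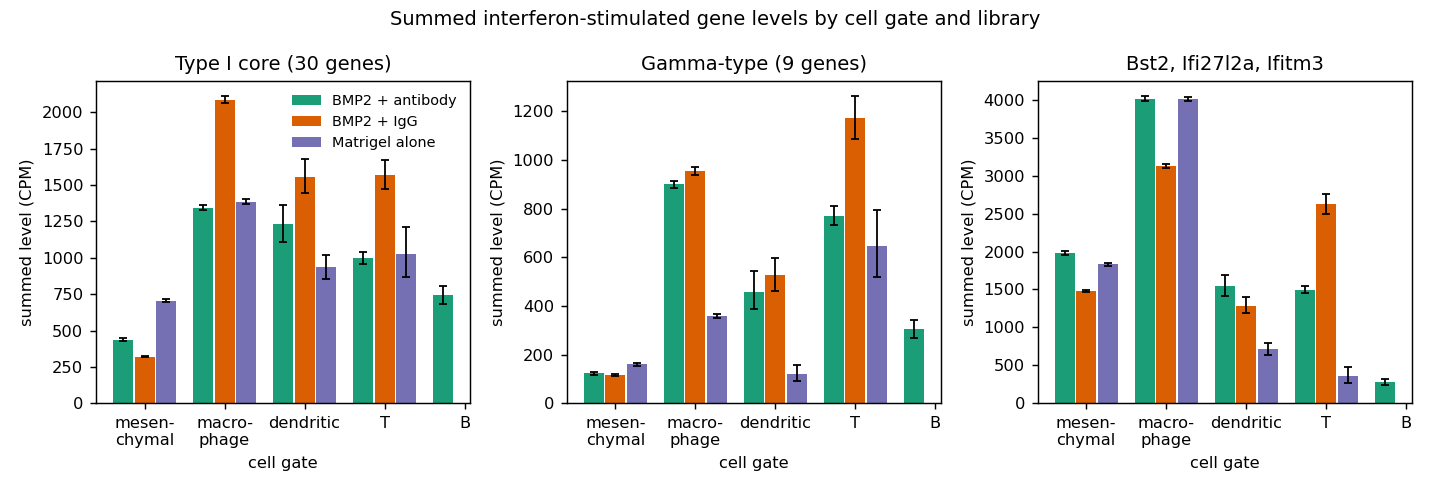
Summed level in CPM of the 30 type I core genes (left), the 9 gamma-type genes (middle) and Bst2, Ifi27l2a and Ifitm3 (right) in each cell gate, for BMP2 with antibody, BMP2 with IgG and Matrigel alone. Bars are 1 library each with exact Poisson 95% intervals of counting error; B cells are drawn for the antibody library alone. The core reaches 2086 CPM in macrophages of the IgG library, while in mesenchymal cells that library is lowest, at 321 CPM.

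In macrophages of the IgG library, all 9 gamma-type members stood at least 1.5-fold higher than in macrophages of the Matrigel library, and their sum was 2.66-fold higher (95% interval 2.59 to 2.74). The type I core was 1.5-fold higher (1.48 to 1.53), with 16 of its 30 genes past 1.5-fold higher and 1, Oas2, past it lower. Over all 42 members 25 were higher and 1 was lower, where 13.2% of all 13149 measured genes were higher and 13.6% were lower. The median log2 ratio of the members was 0.76, beside -0.01 for all measured genes. The high-level trio moved the other way as a sum, at 3129 CPM with IgG against 4008 CPM with Matrigel alone, though none of the 3 passed 1.5-fold.

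The guanylate-binding proteins led this difference. Gbp4 stood at 59.1 CPM (824 UMIs) with IgG, against 3.94 CPM (76 UMIs) with Matrigel alone, a ratio of 15 (11.9 to 19.2). Its reads may be shared with close relatives, since its longest transcript is 91.9% identical to that of Gbp8 and 87.1% to that of Gbp9 over the aligned bases. Gbp2 stood at 239 CPM (3331 UMIs) with IgG, against 49.6 CPM (958 UMIs) with Matrigel alone, a ratio of 4.81 (4.48 to 5.18). Gbp5, which promotes inflammasome assembly, stood at 29.3 CPM (408 UMIs) with IgG, against 7.46 CPM (144 UMIs) with Matrigel alone, a ratio of 3.92 (3.24 to 4.78). Gbp3 and Gbp7 were closer between the libraries, with ratios of 2.30 and 1.80. Gbp3 had 56.3 CPM with the antibody, 52.3 CPM with IgG and 22.8 CPM with Matrigel alone, and Gbp7 had 164, 189.9 and 105 CPM in the same order. Gbp2, Gbp3, Gbp5 and Gbp7 lie in one cluster on chromosome 3 and Gbp4 on chromosome 5 (chr5:105115767-105139586, minus strand, mm10).

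The immunity-related GTPases were highest with IgG. Iigp1 stood at 74.7 CPM (1042 UMIs) with IgG, against 21.3 CPM (412 UMIs) with Matrigel alone, a ratio of 3.50 (3.12 to 3.93). Igtp stood at 99.7 CPM (1390 UMIs) with IgG, against 33.0 CPM (638 UMIs) with Matrigel alone, a ratio of 3.02 (2.74 to 3.32). With the antibody both lay between the other two, at 33.4 CPM for Iigp1 and 66.1 CPM for Igtp. Irgm1, a regulatory member of this family, had 40.2 CPM with the antibody, 66.8 CPM with IgG and 39.0 CPM with Matrigel alone. Irf1, the transcription factor that carries the gamma signal to later targets, had 135 CPM with the antibody, 144 CPM with IgG and 76.0 CPM with Matrigel alone, so the 2 BMP2 libraries lay close together and apart from Matrigel alone.

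**Figure D2:**
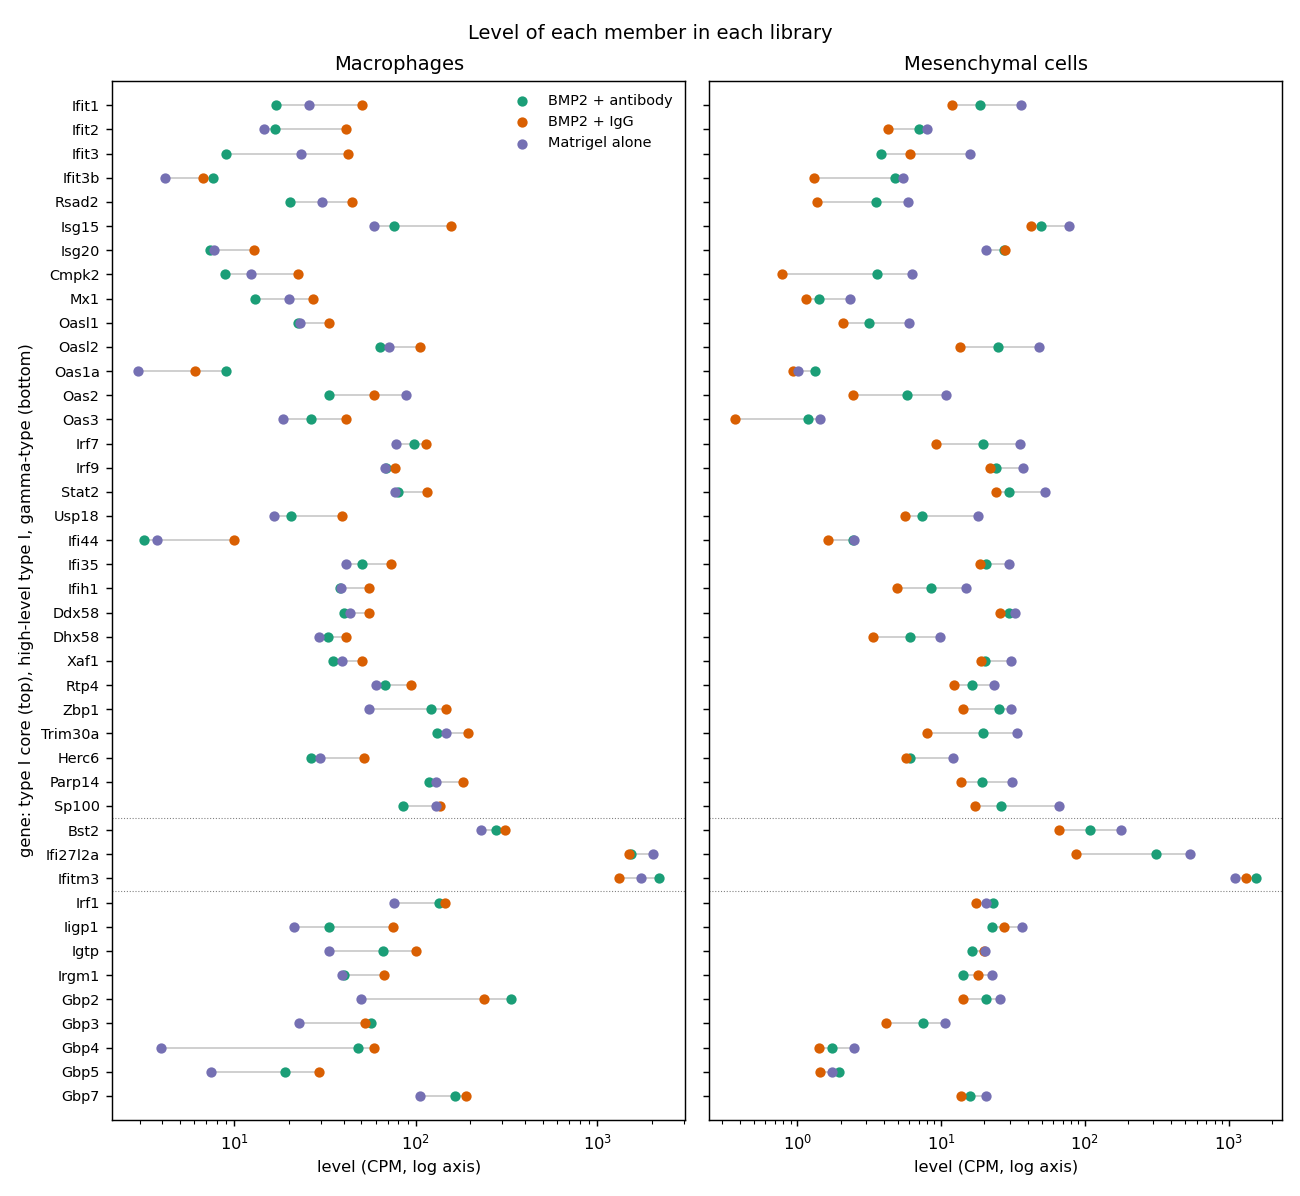
Level in CPM (log axis) of each of the 42 members in macrophages (left) and mesenchymal cells (right), 1 point for each library (BMP2 with antibody, BMP2 with IgG, Matrigel alone). The gamma-type genes at the bottom, such as Gbp4 at 47.9, 59.1 and 3.94 CPM, are lowest with Matrigel alone in macrophages, Irgm1 by little; in mesenchymal cells most type I genes have the IgG library lowest.

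Among type I members in macrophages, Ifit1, Ifit2, Ifit3 and Isg15 were high with IgG and lower in both others. Ifit2, which like its relatives binds viral RNA, stood at 41.4 CPM (578 UMIs) with IgG, against 14.5 CPM (280 UMIs) with Matrigel alone, a ratio of 2.86 (2.47 to 3.31). Isg15, a ubiquitin-like protein that is attached to other proteins, had 75.8 CPM with the antibody, 157 CPM with IgG and 58.5 CPM with Matrigel alone. Usp18, which removes Isg15 and dampens the receptor, had 20.4 CPM with the antibody, 39.4 CPM with IgG and 16.6 CPM with Matrigel alone. Herc6, the ligase that attaches Isg15 in mice, had 26.4, 51.9 and 29.5 CPM in the antibody, IgG and Matrigel libraries. The ubiquitin-like modifier, its ligase and its protease were thus all highest with IgG. Rsad2 (viperin, an antiviral enzyme) had 20.3, 44.2 and 30.3 CPM in the antibody, IgG and Matrigel libraries, and its chromosome 12 neighbour Cmpk2, a nucleotide kinase, 8.83, 22.3 and 12.3 CPM. Mx1, an antiviral GTPase, had 13.0, 27.1 and 19.9 CPM, Isg20, an exonuclease, 7.30, 12.8 and 7.72 CPM, and Ifi44 3.17, 10.0 and 3.73 CPM in that order of libraries.

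Sensors and transcription factors of the type I response differed less. Zbp1, a sensor of Z-form nucleic acids that can start cell death, was the exception among the sensors, at 121 CPM with the antibody, 147 CPM with IgG and 55.5 CPM with Matrigel alone. The RNA sensors Ifih1, Ddx58 and Dhx58 had 38.2, 40.1 and 32.9 CPM with the antibody, 55.1, 55.1 and 41.4 CPM with IgG, and 38.7, 43.2 and 29.2 CPM with Matrigel alone. For Ddx58 the IgG library (768 UMIs) over the Matrigel library (834 UMIs) gave a ratio of 1.27 (1.15 to 1.41), among the 6 lowest of the members. Irf7, which amplifies type I interferon, had 98.0, 114 and 77.9 CPM in the antibody, IgG and Matrigel libraries, and Stat2 79.9, 116 and 76.5 CPM. Irf9, the partner of STAT2, stood at 76.5 CPM (1067 UMIs) with IgG, against 67.9 CPM (1311 UMIs) with Matrigel alone, a ratio of 1.13 (1.04 to 1.22). So Stat2 just passed 1.5-fold, at 1.52, and its partner Irf9 did not.

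The remaining core genes spread over the same range. Sp100, of the nuclear bodies that repress viral DNA, stood at 136 CPM (1894 UMIs) with IgG, against 129.6 CPM (2502 UMIs) with Matrigel alone, a ratio of 1.05 (0.987 to 1.11), and at 85.4 CPM with the antibody. Trim30a, a ubiquitin ligase, had 130.4, 194 and 147 CPM in the antibody, IgG and Matrigel libraries, Parp14, an ADP-ribosyltransferase, 118, 182 and 129 CPM, Rtp4, a receptor chaperone, 67.7, 94.5 and 60.7 CPM, Ifi35 50.8, 72.7 and 41.3 CPM, and Xaf1, a promoter of apoptosis, 34.9, 50.6 and 39.2 CPM. In the last 5 of these genes the IgG library was highest, and Sp100 differed between the IgG and Matrigel libraries by no more than counting error. The oligoadenylate synthetase group did not share one order. Oas3 had 26.3, 41.4 and 18.6 CPM in the antibody, IgG and Matrigel libraries, Oasl1 22.5, 33.2 and 23.1 CPM and Oasl2 63.8, 106 and 71.5 CPM. Oas2 was highest with Matrigel alone instead, at 33.3 CPM with the antibody, 58.5 CPM (816 UMIs) with IgG and 88.7 CPM (1712 UMIs) with Matrigel alone, which put the IgG library 1.52-fold lower than Matrigel (1.39 to 1.65). This call was lost, at ratios of 0.675 to 0.696, with doublets or every barcode kept, with other gates excluded, with Csf1r and Adgre1 both required or with cells weighted alike, and at 0.781 under 2 Arg1 UMIs. Oas1a was highest with the antibody, at 9.0, 6.02 and 2.95 CPM in the antibody, IgG and Matrigel libraries; its longest transcript is 97.5% identical to that of Oas1g over the aligned bases, so their reads may be divided.

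The high-level trio also had orders of its own. Ifitm3, a membrane protein that blocks virus entry, stood at 2206 CPM with the antibody, 1319.9 CPM with IgG and 1737 CPM with Matrigel alone. Ifi27l2a stood at 1531, 1497 and 2042 CPM in the antibody, IgG and Matrigel libraries. The IgG library over the Matrigel library gave ratios of 0.760 (0.746 to 0.773; 18408 and 33544 UMIs) for Ifitm3 and 0.733 (0.721 to 0.746; 20884 and 39416 UMIs) for Ifi27l2a. Bst2 (tetherin), which holds budding virus at the cell surface, had 277, 311 and 229 CPM in the antibody, IgG and Matrigel libraries.

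In macrophages of the antibody library the type I core stood 1.55-fold lower than in macrophages of the IgG library (95% interval 1.52 to 1.58), while the gamma sum differed little, at a ratio of 0.941 (0.920 to 0.963). Of the 30 core genes, 16 were past 1.5-fold lower and none was past it higher. Of the 9 gamma genes, Iigp1, Igtp, Irgm1 and Gbp5 were past it lower, and 7 had ratios under 1. The gamma sum leaned on Gbp2, at a ratio of 1.41. That gene held 5940 of 15877 gamma UMIs with the antibody and 3331 of 13311 with IgG. Over all 42 members 20 were lower and 1, Ifitm3, was higher, where 12.1% of all 12944 measured genes were lower and 6.96% were higher. The median log2 ratio of the members was -0.57, beside -0.12 for all measured genes; with every ratio set relative to that median the core ratio was 0.702 and the gamma ratio 1.03, on the other side of 1.

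Ifit3, Ifit1 and Ifit2, of the cluster on chromosome 19, were at the low end. Ifit3 stood at 8.94 CPM (158 UMIs) with the antibody, against 42.4 CPM (592 UMIs) with IgG, 4.75-fold lower (3.98 to 5.69). Ifit1 stood at 16.9 CPM (298 UMIs) with the antibody, against 50.6 CPM (705 UMIs) with IgG, 3.0-fold lower (2.61 to 3.44). Ifit2 stood at 16.8 CPM (297 UMIs) with the antibody, against 41.4 CPM (578 UMIs) with IgG, 2.47-fold lower (2.14 to 2.85). Their near copy Ifit3b stood apart. It had 7.64 CPM (135 UMIs) with the antibody, against 6.74 CPM (94 UMIs) with IgG, a ratio of 1.13 (0.865 to 1.49). Ifi44, a gene of unsettled function, was 3.17-fold lower with the antibody (2.31 to 4.40; 56 and 140 UMIs in the antibody and IgG libraries), Cmpk2 2.53-fold lower (2.08 to 3.08; 156 and 311 UMIs) and Iigp1 2.24-fold lower (2.02 to 2.48), at 33.4 CPM (590 UMIs) with the antibody, against 74.7 CPM (1042 UMIs) with IgG.

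How Ifit3 and Ifit3b divided their reads differed between libraries in both cell types. Of the UMIs of the pair in macrophages, Ifit3b held 46.1% with the antibody (40.3 to 52.0), against 13.7% with IgG (11.2 to 16.5) and 15.1% with Matrigel alone (12.2 to 18.5). In mesenchymal cells it held 55.5% (45.7 to 64.9), against 17.7% (12.6 to 23.7) with IgG and 25.6% (21.4 to 30.1) with Matrigel alone. Summed over the pair, macrophages of the antibody library stood 2.97-fold lower than those of the IgG library (a ratio of 0.337, 0.293 to 0.387), near the value of Ifit1. The single-gene values of Ifit3 and Ifit3b are therefore uncertain, and why the division differed was not tested.

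At the other end, Ifitm3 stood at 2206 CPM (38969 UMIs) with the antibody, against 1319.9 CPM (18408 UMIs) with IgG, a ratio of 1.67 (1.64 to 1.70). Oas1a (159 and 84 UMIs in the antibody and IgG libraries) had a ratio of 1.49 (1.14 to 1.97), and 1.40 (1.11 to 1.79) when summed with Oas1g. Gbp2 stood at 336 CPM (5940 UMIs) with the antibody, against 239 CPM (3331 UMIs) with IgG, a ratio of 1.41 (1.35 to 1.47). The ratios of Gbp3 (994 and 730 UMIs) and Ifi27l2a (27051 and 20884 UMIs) were 1.07 (0.976 to 1.18) and 1.02 (1.0 to 1.04). Gbp2 and Gbp3 thus stood at or above their IgG level with the antibody, while Gbp4, at a ratio of 0.811, and Gbp7 lay below it, and Gbp5 had 19.1 CPM with the antibody, against 29.3 CPM with IgG.

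The share of macrophages with at least 2 UMIs of Arg1, arginase, an enzyme that marks macrophages of repair and of tumours, differed widely, at 51.6% with the antibody, 36.0% with IgG and 3.70% with Matrigel alone. The split by Arg1 was chosen after the data had been seen, and a cut on UMIs depends on depth. Among macrophages under 2 Arg1 UMIs the core summed to 1325 CPM with the antibody, 2495 CPM with IgG and 1407 CPM with Matrigel alone. Among those with 2 or more it summed to 1362, 1434 and 801 CPM in the same order. The antibody library thus stood at a ratio of 0.531 (0.519 to 0.544) to the IgG library in the cells low in Arg1, and of 0.950 (0.924 to 0.977) in the cells high in Arg1. The gamma sum differed in direction between these cells, with a ratio of 0.630 (0.609 to 0.651) under 2 Arg1 UMIs and of 1.48 (1.43 to 1.54) at 2 or more. Of the 42 members, 32 were lower and none higher in the cells under 2 Arg1 UMIs, where 10.5% of all measured genes were lower and 7.45% higher. In the cells with 2 or more, 4 were lower and 6 higher, where 13.5% of all measured genes were lower and 7.49% higher. Iigp1, Ifit2 and Cmpk2, all lower over all macrophages, had ratios of 1.05, 1.11 and 1.18 in the cells with 2 or more. Whether the difference between these cells exceeds what separate animals give was not tested. The IgG library stayed above Matrigel on both sides of the split, with core ratios of 1.79 and 1.77 and gamma ratios of 2.58 and 3.05 at 2 or more and under 2 Arg1 UMIs. There 26 of 41 measured members were higher and 2 lower at 2 or more (23.1% and 14.9% of all genes), and 33 of 42 were higher and none lower under 2 (12.1% and 13.4% of all genes).

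In mesenchymal cells the type I core of the IgG library stood 2.20-fold lower than with Matrigel alone (95% interval 2.14 to 2.26), opposite to macrophages. Of the 42 members 32 were past 1.5-fold lower and none was past it higher, where 21.1% of all 14339 measured genes were lower and 16.6% were higher. These were 27 of the 30 core genes, Bst2, Ifi27l2a, Gbp2, Gbp3 and Gbp4. The gamma sum was 1.36-fold lower (1.30 to 1.43), with 3 of 9 genes past 1.5-fold. The median log2 ratio of the members was -1.10, beside -0.03 for all measured genes. Free RNA in droplets gives UMIs in cells that do not express a gene, and its part in the low levels was not tested. Against the larger gates alone, 21 of the 42 members in mesenchymal cells of the IgG library stood under 10% of another gate. With Matrigel alone 2 of 42 did. These counts left out the dendritic gate with IgG (94 cells) and the T gate with Matrigel alone (87 cells), so they rest on different gates. Left uncounted were Bst2 with IgG (66.6 CPM, against 748 CPM in dendritic cells) and Gbp4 with Matrigel alone (2.50 CPM, against 86.9 CPM in T-gated cells).

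Ifi27l2a, a small membrane protein, stood at 86.3 CPM (2325 UMIs) with IgG, against 542 CPM (10209 UMIs) with Matrigel alone, 6.28-fold lower (6.0 to 6.57). Cmpk2 had 0.779 CPM (21 UMIs) with IgG, against 6.32 CPM (119 UMIs) with Matrigel alone, 8.11-fold lower (5.07 to 13.6). Oas2 had 2.45 CPM (66 UMIs) with IgG, against 10.9 CPM (205 UMIs) with Matrigel alone, 4.44-fold lower (3.35 to 5.96). All 3 were thus far below Matrigel, though Cmpk2 and Oas2 were scarce in both libraries. Trim30a had 7.94 CPM (214 UMIs) with IgG, against 33.7 CPM (635 UMIs) with Matrigel alone, 4.25-fold lower (3.63 to 4.98). Rsad2 was 4.29-fold lower (2.93 to 6.41; 37 UMIs with IgG against 111 with Matrigel alone) and Ifit3b 4.21-fold lower (2.84 to 6.37; 35 against 103 UMIs). With Ifit3 and Ifit3b summed, the pair was 2.91-fold lower, at 7.35 CPM with IgG against 21.4 CPM with Matrigel alone.

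At the upper end of this comparison, Isg20 stood at 27.8 CPM (750 UMIs) with IgG, against 20.6 CPM (388 UMIs) with Matrigel alone, a ratio of 1.35 (1.19 to 1.53). Ifitm3 stood at 1323 CPM (35646 UMIs) with IgG, against 1111 CPM (20925 UMIs) with Matrigel alone, a ratio of 1.19 (1.17 to 1.21). These were the 2 members with a ratio above 1. Igtp had a ratio of 0.991 (0.867 to 1.13; 540 and 381 UMIs in the IgG and Matrigel libraries), Irf1 of 0.841 (0.734 to 0.964; 468 and 389 UMIs), Gbp5 of 0.826 (0.506 to 1.36; 39 and 33 UMIs) and Oas1a of 0.920 (0.486 to 1.77; 25 and 19 UMIs). For the last 2 the counts are too few to tell a difference in either direction.

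With the antibody, mesenchymal cells carried more of the type I core than with IgG, at a ratio of 1.36 (95% interval 1.31 to 1.40), while the gamma sum was about level at 1.05 (0.987 to 1.11). The core ratio was 0.987 in the cells under 2 UMIs of Pi16, a fibroblast marker, and 1.05 in those under 2 UMIs of cartilage genes, with 4 and 8 members higher. Of all genes 7.91% were higher under 2 Pi16 UMIs, and no such share was taken for the limit on cartilage genes. Of the 42 members 17 were past 1.5-fold higher and 1, Ifit3, was past it lower, where 9.90% of all 14009 measured genes were higher and 12.7% were lower. The higher ones were 14 core genes, Bst2, Ifi27l2a and Gbp3. The median log2 ratio of the members was 0.51, beside -0.07 for all measured genes. This comparison and the one with Matrigel share the IgG library, so a low IgG value enters both.

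Ifi27l2a stood at 312 CPM (3979 UMIs) with the antibody, against 86.3 CPM (2325 UMIs) with IgG, a ratio of 3.62 (3.44 to 3.81), and at 542 CPM with Matrigel alone. Cmpk2 had 3.61 CPM (46 UMIs) with the antibody, against 0.779 CPM (21 UMIs) with IgG, a ratio of 4.63 (2.71 to 8.17). Trim30a had 19.5 CPM (249 UMIs) with the antibody, against 7.94 CPM (214 UMIs) with IgG, a ratio of 2.46 (2.04 to 2.97). For these 3 genes the antibody library lay between the IgG and Matrigel libraries. Oas3 (15 and 10 UMIs in the antibody and IgG libraries) had a ratio of 3.17 (1.33 to 7.89), Rsad2 (45 and 37 UMIs) of 2.57 (1.63 to 4.08) and Ifit3b (61 and 35 UMIs) of 3.68 (2.39 to 5.75), on few UMIs each. Ifit3 was 1.57-fold lower instead (1.14 to 2.21, on 49 and 163 UMIs). The pair of Ifit3 and Ifit3b together had a ratio of 1.17 (0.921 to 1.49). Why their single-gene values were opposite was not tested.

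Besides Ifit3, the lowest ratios included 3 gamma-type members. Iigp1 stood at 22.6 CPM (288 UMIs) with the antibody, against 27.6 CPM (743 UMIs) with IgG, a ratio of 0.819 (0.712 to 0.940). Igtp (209 and 540 UMIs) had a ratio of 0.818 (0.694 to 0.961) and Irgm1 (181 and 486 UMIs) of 0.787 (0.660 to 0.935). Among core genes Isg20 (349 and 750 UMIs) had a ratio of 0.983 (0.864 to 1.12) and Xaf1 (256 and 508 UMIs) of 1.06 (0.913 to 1.24). None of these 5 passed 1.5-fold.

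**Figure D3:**
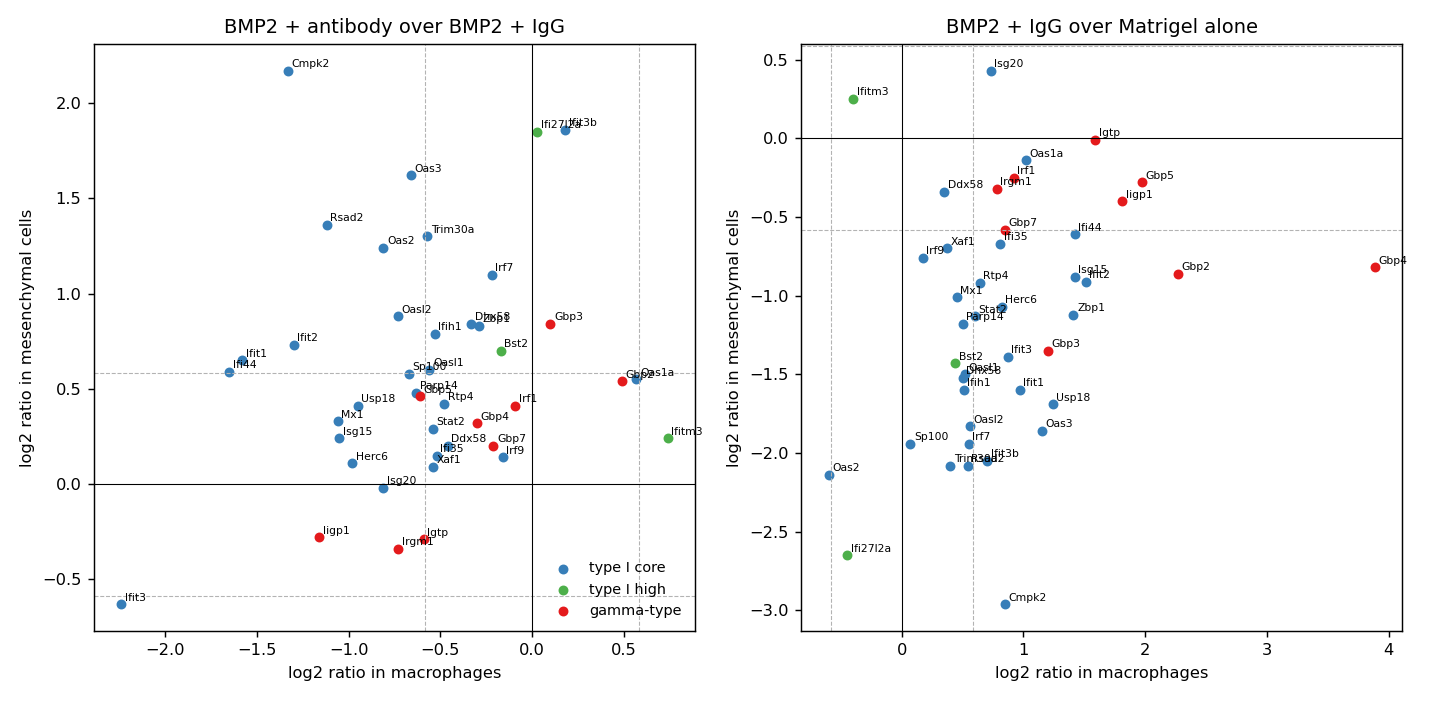
Log2 ratio of CPM in macrophages (horizontal) against mesenchymal cells (vertical) for each of the 42 members, for BMP2 with antibody over BMP2 with IgG (left) and BMP2 with IgG over Matrigel alone (right). Dashed lines mark 1.5-fold; both panels share the IgG library. In the right panel most members lie right of and below 0, such as Gbp4 with a ratio of 15 in macrophages and 0.565 in mesenchymal cells.

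The mesenchymal gate mixed cells that differ strongly in these genes. Pi16, a secreted protein that marks fibroblasts of the vessel sheath and fascia, was detected at 2 UMIs or more in 27.7% of mesenchymal cells of the antibody library, 8.59% of those of the IgG library and 45.5% of those of the Matrigel library. The split by Pi16 was chosen after the data had been seen, and a cut on UMIs depends on depth. Median depth in mesenchymal cells was 19186.5, 17191 and 8752.5 UMIs in the antibody, IgG and Matrigel libraries. Classes cut at 2 UMIs of Pi16 or Inhba may therefore not match between libraries. Cells with 2 or more Pi16 UMIs held the core at 1364 CPM with the antibody, 1098 CPM with IgG and 1333 CPM with Matrigel alone, and the cells under 2 at 261, 264 and 314 CPM in the same order. The gamma sum was 365, 424 and 285 CPM in the antibody, IgG and Matrigel libraries at 2 or more Pi16 UMIs, and 78.2, 95.5 and 83.5 CPM under 2. Cells with at least 2 UMIs of Inhba, the gene of the activin A subunit, were at the low end, with a core of 201, 220.0 and 186 CPM in the antibody, IgG and Matrigel libraries, where they made up 52.9%, 65.0% and 4.94% of mesenchymal cells.

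Within the Pi16 classes the libraries lay closer together in the core sum. Of the gamma ratios below, only that of IgG over Matrigel under 2 Pi16 UMIs showed a smaller difference than over all mesenchymal cells. At 2 or more Pi16 UMIs the core ratio was 0.823 (0.785 to 0.864) for the IgG library over Matrigel and 1.24 (1.17 to 1.32) for the antibody library over IgG. Under 2 it was 0.843 (0.809 to 0.878) for IgG over Matrigel and 0.987 (0.944 to 1.03) for the antibody over IgG. The gamma ratio turned direction for IgG over Matrigel, to 1.49 (1.37 to 1.62) at 2 or more and 1.14 (1.06 to 1.23) under 2. For the antibody over IgG it was about level over all mesenchymal cells, at 1.05 (0.987 to 1.11). Within the classes it was 0.860 (0.777 to 0.953) at 2 or more and 0.818 (0.755 to 0.885) under 2. Of the 42 members, 10 were lower and 6 higher for IgG over Matrigel in the cells with 2 or more Pi16 UMIs, where 16.8% of all measured genes were lower and 12.6% higher. In the cells under 2, 9 were lower and 6 higher, where 19.1% were lower and 14.6% higher. The antibody over IgG gave 12 higher and 3 lower at 2 or more (10.9% and 19.1% of all genes) and 4 higher and 5 lower under 2 (7.91% and 14.0% of all genes). Rsad2, 4.29-fold lower over all mesenchymal cells of the IgG library, had a ratio of 1.15 to Matrigel in the cells under 2 Pi16 UMIs. Cartilage markers also differed in the mesenchymal gate, at 783, 3743 and 22 CPM in the antibody, IgG and Matrigel libraries, and in cells under 2 UMIs of cartilage genes the core ratio was 0.662 for IgG over Matrigel and 1.05 for the antibody over IgG.

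**Figure D4:**
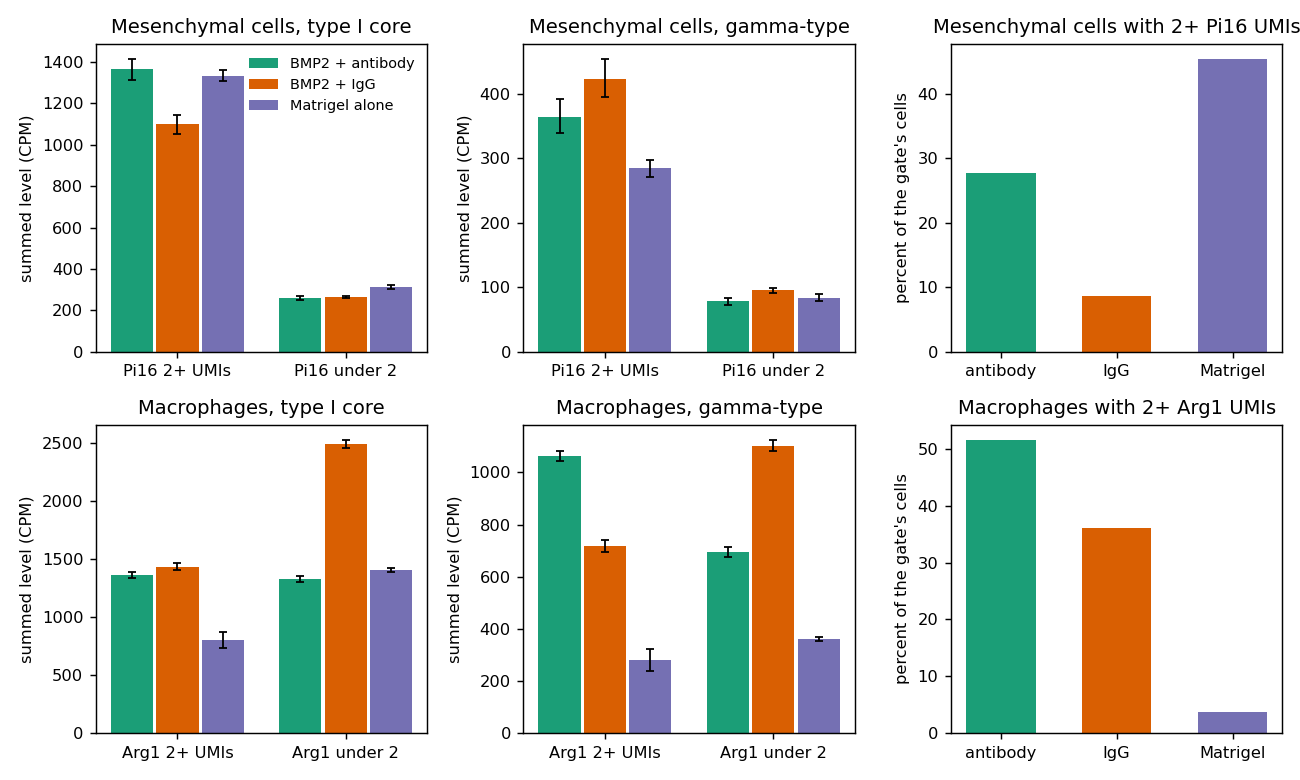
Summed level in CPM of type I core (left) and gamma-type genes (middle) in mesenchymal cells split by Pi16 (top) and macrophages split by Arg1 (bottom), with the percent of each gate's cells at 2 or more UMIs of that gene (right). Bars are 1 library each (BMP2 with antibody, BMP2 with IgG, Matrigel alone) with exact Poisson 95% intervals of counting error. Mesenchymal cells with 2 or more Pi16 UMIs hold 1098 to 1364 CPM of the core and those under 2 hold 261 to 314 CPM, whichever the library.

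Dendritic cells were few, and 16 members missed the count minimum for the antibody over IgG and 15 for IgG over Matrigel. The gamma sum was 459 CPM with the antibody, 526 CPM with IgG and 122 CPM with Matrigel alone. All 8 measured gamma genes were higher with IgG than with Matrigel alone, and the gamma sum was 4.32-fold higher (3.26 to 5.81), on 240 and 62 UMIs. Gbp4, Gbp5 and Gbp7 had 14, 20 and 31 UMIs with IgG, against 1, 1 and 2 with Matrigel alone. These 3, Igtp, Gbp2 and Gbp3 reached 10 UMIs in the IgG library but not in the Matrigel one. For Irgm1 the ratio of 1.68 (0.813 to 3.56) lay within counting error. Over the 27 measured members 21 were higher and none lower, where 23.5% of all measured genes were higher and 17.4% lower. Irf1 had 198, 175 and 51.0 CPM and Isg15 122, 118 and 9.82 CPM in the antibody, IgG and Matrigel libraries. The core summed to 1232, 1559 and 934 CPM in the same order. With the antibody, 10 of 26 members were lower than with IgG and 1, Ifitm3, was higher, where 25.9% of all genes were lower and 10.7% higher.

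T-gated cells had the highest gamma sum of the 5 gates in the IgG and Matrigel libraries, at 771 CPM with the antibody, 1171 CPM with IgG and 645 CPM with Matrigel alone. Gbp4 had 129, 183 and 86.9 CPM and Igtp 155, 275 and 65.2 CPM in the antibody, IgG and Matrigel libraries. Ifi27l2a made up most of the high-level trio, at 1184 CPM with the antibody, 2132 CPM with IgG and 275 CPM (38 UMIs) with Matrigel alone. Between IgG and Matrigel, 16 of 29 measured members were higher and none lower, where 24.1% of all genes were higher and 18.5% lower. This gate held 607008 UMIs with IgG and 138042 with Matrigel alone, so members reached the count minimum mostly through the IgG library. Ifit1, Rtp4 and Iigp1 had 19, 16 and 14 UMIs with IgG and 0 with Matrigel alone. For Isg20 (0.866 to 9.17), Dhx58 (0.444 to 126) and Trim30a (0.930 to 3.42), all called higher, the intervals included a ratio of 1. Between the antibody and IgG, 21 of 38 were lower and 1, Mx1, was higher on 10 UMIs against 1 (a ratio of 2.81, 0.400 to 122), where 22.5% of all genes were lower and 13.8% higher. The NK markers stood at 833, 2316 and 1572 CPM in this gate in the antibody, IgG and Matrigel libraries. The intervals of the gamma sum overlapped between the antibody (734 to 809 CPM) and Matrigel (518 to 793 CPM, 89 UMIs) libraries. The part of NK cells in the differences was not tested. B cells of the antibody library held the core at 744 CPM and the gamma genes at 304 CPM, with Sp100 at 302 CPM in the core and Irf1 at 154 CPM among the gamma genes, and Ifi27l2a of the high-level trio at 206 CPM.

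The members were spread unevenly over cells. To compare cells of different depth, each was thinned to 1000 UMIs, which left out 82, 113 and 233 macrophages of the antibody, IgG and Matrigel libraries. At least 1 core UMI was then found in 63.9% of macrophages of the antibody library (62.1 to 65.6), 70.6% of those of the IgG library (68.9 to 72.2) and 60.2% of those of the Matrigel library (58.8 to 61.5); without thinning the shares were 93.9%, 91.3% and 84.8%. In mesenchymal cells the thinned shares were 29.6%, 25.6% and 40.1%. At least 1 gamma UMI was found in 45.5% of macrophages of the antibody library, 47.7% of those of the IgG library and 28.2% of those of the Matrigel library. The gamma genes were thus detected in larger shares of macrophages in both BMP2 libraries than with Matrigel alone.

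A small class of macrophages carried 10 or more core UMIs per 1000. They numbered 24 of 2958 with the antibody (0.811%, 0.521 to 1.2), 113 of 3002 with IgG (3.76%, 3.11 to 4.51) and 55 of 5331 with Matrigel alone (1.03%, 0.778 to 1.34). These cells held 8.69% of the thinned core UMIs of the antibody library, 25.4% of those of the IgG library and 11.2% of those of the Matrigel library. Without them the mean core count per cell was 1.32, 1.77 and 1.27 in the antibody, IgG and Matrigel libraries, against 1.43, 2.29 and 1.42 with them, so the IgG library stayed highest but by less. They were no separate class by count, since 18, 66 and 34 cells of the antibody, IgG and Matrigel libraries had 8 or 9 core UMIs and 7, 29 and 19 had 10 or 11. Their median depth was 4668.5, 3820 and 2980 UMIs, near that of the other macrophages at 4920.5, 3789 and 3153. Any Ifit gene was detected in 79.2%, 72.6% and 70.9% of them and in 2.59%, 5.50% and 3.60% of the other macrophages, which follows in part from the choice, since the Ifit genes belong to the core. They averaged 3.29, 3.70 and 1.87 gamma UMIs, against 0.912, 0.963 and 0.351 in the others. Among mesenchymal cells 1, 2 and 11 cells of the antibody, IgG and Matrigel libraries reached 10 core UMIs. The variance of the core count over its mean, which is 1 for even Poisson counts, was 2.91, 5.01 and 3.65 in macrophages of the antibody, IgG and Matrigel libraries, and 2.56, 2.76 and 1.34 for the gamma genes.

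**Figure D5:**
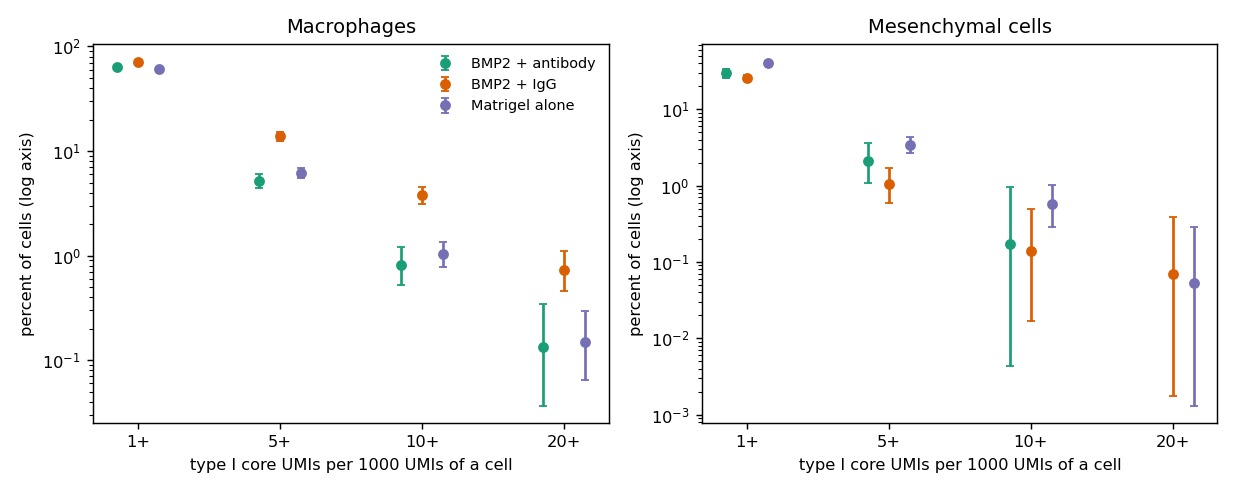
Percent of thinned macrophages (left) and mesenchymal cells (right), on a log axis, that carry at least 1, 5, 10 or 20 type I core UMIs per 1000 UMIs, for BMP2 with antibody, BMP2 with IgG and Matrigel alone. Bars are exact Clopper-Pearson 95% intervals of counting error; shares of 0 are not drawn. At 10 or more the IgG macrophages stand at 3.76%, the antibody ones at 0.811% and the Matrigel ones at 1.03%.

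Single genes differed in how few cells carried them. In macrophages before thinning, Rsad2 was found in 5.89% of cells of the antibody library, 6.74% of the IgG library and 4.46% of the Matrigel library, and the 10 cells with the most held 34%, 26.6% and 41.4% of its UMIs. For Sp100 the 10 highest cells held 4.11%, 3.59% and 2.20%. The Ifit genes and the sum of Isg15, Rsad2, Cmpk2, Usp18 and Irf7 went together across thinned macrophages, with Pearson's r of 0.50, 0.57 and 0.57 over 2958, 3002 and 5331 cells of the antibody, IgG and Matrigel libraries. The core and gamma sums had r of 0.22, 0.46 and 0.32 over the same cells. Cells of a library share its preparation and sequencing, and these values describe them without a test. Among 7288 other genes, those with a mean r to the core sum among the 10 highest across the 3 libraries included Slfn5 (0.33), Ifi204 (0.32), Plac8 (0.31), Ifi203 (0.29), Ifi202b (0.28), Rnf213 (0.26), Ly6e (0.23), Phf11d (0.23) and Ifi47 (0.23).

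The interferons themselves were almost undetected apart from Ifng. The 19 type I and lambda interferon genes gave 12 UMIs in all kept cells of the antibody library, 8 with IgG and 19 with Matrigel alone, all from Ifnab and Ifnk except 1 UMI of Ifna2 with Matrigel alone, and Ifnb1 had 0 UMIs in each. At this depth their source cannot be placed. Ifng gave 155, 172 and 17 UMIs in the antibody, IgG and Matrigel libraries, of which 118, 145 and 9 came from T-gated cells. Per UMI of T-gated cells its level was 54.6 CPM with the antibody, 239 CPM with IgG and 65.2 CPM with Matrigel alone. The T gate held 895, 224 and 87 cells in these libraries.

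Receptor and signalling genes were followed as well. Of 25 measured in macrophages, 3 were higher with IgG than with Matrigel alone, Jak2 and Socs1 among them, and none was lower, where 13.2% of all genes were higher and 13.6% lower. The share of higher ones was thus near that of all genes. Jak2, the kinase of the gamma receptor, had 76.6, 127 and 25.5 CPM in the antibody, IgG and Matrigel libraries, and Socs1, the feedback inhibitor of gamma signalling, 46.1, 73.8 and 15.1 CPM. The receptor chains Ifngr1 and Ifnar1 had 229.8, 209.7 and 249 CPM and 81.6, 95.2 and 93.5 CPM in the same order. With the antibody, Jak2, Socs1 and Tmem173 were among the 4 that were lower than with IgG, and none was higher, where 12.1% of all genes were lower and 6.96% higher. In mesenchymal cells 8 of 24 receptor and signalling genes were lower with IgG than with Matrigel alone and 1 was higher, where 21.1% of all genes were lower and 16.6% higher. They included Ifngr1, at 64.9, 52.0 and 106 CPM in the antibody, IgG and Matrigel libraries, Ifngr2, at 33.4, 19.4 and 58.8 CPM, and Jak1, at 192, 135 and 368 CPM.

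Other targets outside the list were counted in the same way. In macrophages, 25 of 37 measured other gamma targets were higher with IgG than with Matrigel alone and 1 was lower, with a median log2 ratio of 1.24; of 58 other type I targets 19 were higher and none lower, with a median of 0.30. Of all genes 13.2% were higher and 13.6% lower. Among genes on more than 1 list, Socs1 stands on the receptor and gamma lists, Tlr3 on the receptor and type I lists, and Cxcl10 on both target lists. In mesenchymal cells Tlr3 counts as lower with IgG than with Matrigel alone on both of its lists. Cxcl9, a chemokine that draws T cells and depends on interferon gamma, had 18.1 CPM with the antibody, 38.6 CPM with IgG and 0.311 CPM with Matrigel alone, and Cxcl10 27.6, 80.2 and 7.56 CPM. Psmb8, of the immunoproteasome, had 395, 426 and 177 CPM, and Tap1, which carries peptides to class I molecules, 129, 149.6 and 63.5 CPM. The peptide-processing genes were thus nearly level between the 2 BMP2 libraries, while both chemokines were lower with the antibody. The 1 lower gene was H2-Eb1, of class II, at 2587 CPM with the antibody, 1024 CPM with IgG and 3650.3 CPM with Matrigel alone, beside H2-Ab1, also of class II, at 3202, 4799.6 and 4674 CPM.

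For the antibody over IgG in macrophages, 15 of 58 other type I targets were lower and 1 higher, and 12 of 36 other gamma targets were lower and 3 higher, with medians of -0.36 and -0.32, where 12.1% of all genes were lower and 6.96% higher. The type I and gamma targets thus had similar medians in this comparison. In mesenchymal cells, 35 of 55 other type I targets were lower with IgG than with Matrigel alone and 6 higher, with a median of -0.74, and 11 of 34 other gamma targets were lower and 5 higher, with a median of -0.24, where 21.1% of all genes were lower and 16.6% higher. Slfn5 had 90.1 CPM in mesenchymal cells of the antibody library, 53.4 CPM in those of the IgG library and 311 CPM in those of the Matrigel library, and Ly6a, which also marks fibroblast progenitors, 1016, 900.2 and 2220.0 CPM. For the antibody over IgG, 10 of the 55 were higher and 5 lower, where 9.90% of all genes were higher and 12.7% lower. Cxcl9 stood at 5.73, 15.7 and 9.56 CPM in mesenchymal cells of the antibody, IgG and Matrigel libraries, so this gamma target was not lower with IgG there.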

How the data were processed

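Cells of 3 libraries, 1 for each group, went through 10x Genomics 3' v3 droplets, as stated in the labels' protocols. Cell Ranger 3.0.2 and build mm10 are named by the submitters' processing notes, with no annotation release. The authors deposited raw UMI counts for each gene in each barcode, which per the file headers are integers and were found not to be normalized.

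Barcodes were kept with at least 300 genes, 500 UMIs and at most 15% mitochondrial UMIs. Scrublet (scanpy 1.11.5) marked 4, 3 and 2 cells automatically in the antibody, IgG and Matrigel libraries, so the highest-scoring cells were removed at 0.8% per 1000 cells (285, 284 and 681). The T gate took cells without Csf1r or Adgre1 and with at least 2 T marker UMIs, the B gate likewise, and the dendritic gate those with at least 2 of its markers. Log2 ratios had 1 UMI added to each sum. Thinning to 1000 UMIs used seed 1. Gene positions came from GENCODE M21, matched by gene ID for 42 members. Python 3.11.15, numpy 2.4.6 and scipy 1.17.1 were used, and the scripts were tested on simulated data.

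The members and all gene lists were chosen with earlier results of these data known. The 6 highest and 6 lowest ratios of each comparison in mesenchymal cells and macrophages were given in full, and the 10 most correlated other genes were named, except 1 gene that is not reported here. Ifit3, Oas1a and their copies were summed after their values had been seen. Of the alternatives tried, 13 were listed at the start and 4, the splits by Pi16 and Arg1, were added after the data had been seen.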

Additional observations from a re-analysis of the deposited data

Results flagged for a closer look

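A result is listed here where macrophages and mesenchymal cells of the same libraries stood past 1.5-fold in opposite directions; with 1 library a group the difference between the cell types was not tested. For the IgG library over the Matrigel library, the type I core sum had a ratio of 1.5 in macrophages and was 2.20-fold lower in mesenchymal cells. The genes that were higher in macrophages and lower in mesenchymal cells were Ifit1 (ratio 1.96 in macrophages and 0.330 in mesenchymal cells), Ifit2 (2.86 and 0.532), Ifit3 (1.83 and 0.380), Ifit3b (1.63 and 0.238), Isg15 (2.68 and 0.542), Cmpk2 (1.81 and 0.123), Oas3 (2.23 and 0.259), Stat2 (1.52 and 0.458), Usp18 (2.37 and 0.309), Ifi44 (2.69 and 0.654), Ifi35 (1.76 and 0.629), Rtp4 (1.56 and 0.528), Zbp1 (2.66 and 0.460), Herc6 (1.76 and 0.474), Gbp2 (4.81 and 0.549), Gbp3 (2.30 and 0.391) and Gbp4 (15 and 0.565).

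For the antibody library over the IgG library the directions were the other way round, lower in macrophages and higher in mesenchymal cells, for Ifit1 (ratio 0.334 in macrophages and 1.57 in mesenchymal cells), Ifit2 (0.406 and 1.65), Rsad2 (0.460 and 2.57), Cmpk2 (0.396 and 4.63), Oasl2 (0.603 and 1.83), Oas2 (0.569 and 2.37) and Oas3 (0.634 and 3.17). Both comparisons share the IgG library. The share of mesenchymal cells with 2 or more Pi16 UMIs also differed, at 27.7%, 8.59% and 45.5% in the antibody, IgG and Matrigel libraries. Its part in these ratios was not tested.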

How the results depend on the processing

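No paired analysis was possible because each group had 1 library, and no replicate could be left out. Over 13 alternatives set at the start and 4 added after the data had been seen, 114 values of the counts and sum ratios stayed within the main value's interval or within 1.5 times its count, 78 moved, and none that was past 1.5-fold changed direction, though ratios within 1.5-fold, of sums and of single members, crossed 1 in some splits; of 503 values of the named members, 4 of those past 1.5-fold changed direction, Rsad2 in mesenchymal cells for IgG over Matrigel (1.15 under 2 Pi16 UMIs) and, in macrophages with 2 or more Arg1 UMIs for the antibody over IgG, Iigp1 (1.05), Ifit2 (1.11) and Cmpk2 (1.18). Gbp4 gave no value for IgG over Matrigel at 2 or more Arg1 UMIs, where the Matrigel cells had none of its UMIs. The cause of these moves was not tested.

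In the counts and ratios below, with and without Pi16 or Arg1 mean 2 or more and under 2 UMIs of that gene. Among the alternatives, shares of all genes were taken for the Pi16 and Arg1 splits alone, as given above. In mesenchymal cells, antibody over IgG, 8 members were higher at 2-fold and 8 in cells under 2 UMIs of cartilage genes. Under 2 Pi16 UMIs 4 were higher, beside 7.91% of all genes. The 1 lower member became 0 with doublets kept, every barcode kept, a collagen gate of 2%, cells weighted alike, scaling by the median ratio or a 2-fold cutoff, 2 without the 10 highest cells, 4 under the cartilage limit, 3 with Pi16 and 5 without. The core ratio was 1.43 (collagen 2%), 1.58 (cells weighted alike), 1.25 (without the 10 highest cells), 1.44 (scaled), 1.05 (cartilage limit), 1.24 (with Pi16) and 0.987 (without); the gamma ratio was 1.16 (collagen 2%), 1.25 (weighted alike), 0.834 (cartilage limit), 0.860 (with Pi16) and 0.818 (without). For IgG over Matrigel, 6 members were higher with Pi16 and 6 without, and 19 (cartilage limit), 10 (with Pi16) and 9 (without) were lower. The core ratio was 0.441 (weighted alike), 0.438 (without the 10 highest cells), 0.662 (cartilage limit), 0.823 (with Pi16) and 0.843 (without); the gamma ratio was 0.677 (collagen 2%), 0.688 (weighted alike), 1.03 (cartilage limit), 1.49 (with Pi16) and 1.14 (without).

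In macrophages, antibody over IgG, 2 members were higher with a collagen gate of 2%, 0 with Csf1r and Adgre1 both required, 3 when scaled, 0 at 2-fold, 6 with Arg1 and 0 without; 9 were lower at 2-fold, 4 with Arg1 and 32 without. The core ratio was 0.632 (dendritic, T and B gates excluded), 0.602 (both markers), 0.702 (scaled), 0.950 (with Arg1) and 0.531 (without), and the gamma ratio 0.850 (both markers), 0.880 (weighted alike), 1.03 (scaled), 1.48 (with Arg1) and 0.630 (without). For IgG over Matrigel, 13 members were higher at 2-fold. The 1 lower member, Oas2, became 0 with doublets kept, every barcode kept, other gates excluded, both markers, cells weighted alike, a 2-fold cutoff or without Arg1, and 2 with Arg1. The core ratio was 1.47 (collagen 2%), 1.55 (other gates excluded), 1.60 (both markers), 1.59 (weighted alike), 1.79 (with Arg1) and 1.77 (without), and the gamma ratio 2.79 (both markers), 2.88 (weighted alike), 2.58 (with Arg1) and 3.05 (without). Depth limits the members at a few CPM, above all Mx1, Oas1a, Oas3, Gbp4 and Gbp5 in mesenchymal cells and most members in dendritic cells.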

Other observations

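Macrophages with at least 2 UMIs of Ly6c2, a marker of monocytes that have just entered a tissue, were few but high in the type I core. The 61 such cells of the antibody library held it at 3018 CPM and the 71 of the IgG library at 5229 CPM, while the Matrigel library had 5 such cells and no level is given. The other macrophages held 1311, 2026 and 1386 CPM in the antibody, IgG and Matrigel libraries. Gamma genes stood at 781 CPM in the Ly6c2 cells of the antibody library and 2029 CPM in those of the IgG library. Macrophages with at least 2 UMIs of Lyve1, a marker of tissue-resident macrophages, held the core at 1723, 2494 and 1839 CPM and the high-level trio at 6144, 6929 and 5693 CPM in the antibody, IgG and Matrigel libraries, above the macrophages under 2 at 1281, 2066 and 1304 CPM of the core. These splits were chosen after the data had been seen and are given as values.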
